A study of Mus musculus with 4 samples.

Results

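The 8 genes described here are the liver's receptors for adrenaline and noradrenaline, glucagon, insulin and leptin, together with the adaptor proteins that the insulin receptor acts through: Adra1a, Adra1b, Adra2a, Gcgr, Insr, Irs1, Irs2 and Lepr. They were taken by gene symbol from a table of read counts that lists 35275 genes. All 8 passed the filter of at least 1 CPM, a count per gene set relative to the total of its library, in any library, as did 12180 genes in all. The genes were chosen by their role as receptors and with their counts in these 4 libraries, and the ratios between them, already known, so their levels and ratios are given as a description, with intervals but no p-values.

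The study asked how the mouse liver transcriptome responds to interval exercise training (IT) and to AApoAII amyloidosis, a disease in which the plasma apolipoprotein A-II aggregates into fibrils that are deposited in many organs. It holds 4 RNA-seq libraries, each made from a pool of liver homogenates of 4 mice: vehicle sedentary (VS), vehicle with IT (VI), fibril sedentary (FS) and fibril with IT (FI). All mice were 26-week-old females carrying the amyloidogenic Apoa2c allele. The labels name the strain as AKR/J with an Apoa2c congenic genotype, whereas the study's methods describe R1.P1-Apoa2c mice, in which the allele came from SAMP1 mice onto a SAMR1 background. The vehicle groups received an injection without fibrils and the fibril groups an intravenous injection of isolated AApoAII fibrils, which seeds the disease, at the start of a 16-week period. The IT groups ran alternating bouts of slow and fast treadmill running during those 16 weeks, and the sedentary groups did not train. The study reported less amyloid in the livers of trained than of sedentary fibril mice. FS and FI therefore differ in amyloid load as well as in training. The ratios given here for amyloidosis, FS versus VS and FI versus VI, are ratios of fibril to vehicle livers at unlike loads. Because each group is 1 pool, the 16 mice give 1 value per group, and no difference between a pair of groups can be tested against the spread between mice. Where a sentence lists 4 values with no group named, they are in the order VS, VI, FS, FI.

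The libraries held between 23442935 and 28814802 counts, and albumin took 12.1% to 13.6% of them. All 10 hepatocyte markers examined were above 1 CPM, so the tissue fitted its label. The VS library stood apart in its 13 skeletal muscle markers, which summed to 78.5 CPM, against 10.2 in VI, 1.12 in FS and 1.07 in FI. For the receptors, each ratio that uses VS is therefore given with FI versus FS or FI versus VI, which do not use it. VI also held more muscle marker RNA than FI, with a median FI versus VI log2 ratio of -3.91 over the expressed markers. Only FI versus FS compares libraries with similar sums of these markers, so the amyloidosis ratios have no such counterpart. The part of muscle RNA in the values of the receptors was not tested.

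These receptors carry the hormonal signals that set whether the liver stores or releases fuel. Alpha-1 adrenergic receptors (Adra1a, Adra1b) couple to the G protein Gq and raise calcium, which drives glycogen breakdown. The alpha-2 receptor Adra2a couples to the inhibitory G protein Gi and lowers cyclic AMP (cAMP), whereas beta receptors and the glucagon receptor Gcgr couple to Gs and raise it. Insr is a tyrosine kinase that, once insulin is bound, phosphorylates Irs1 and Irs2, and these recruit phosphatidylinositol 3-kinase. Lepr, the leptin receptor, is made in several splice forms. The long form signals through the kinase JAK2 and the transcription factor STAT3, and in the liver short and soluble forms are also made. In whole liver RNA, fewer cells of a type and less RNA per cell cannot be told apart.

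In outline, Adra2a and Lepr were higher in the trained livers, and with amyloidosis Lepr was higher and Adra1b lower. Promoters of 6 of the 8 members, with 8 start sites, were found in a table of RefSeq sequences (GRCm38.p6). They are shown for Adra2a, Irs2 and Lepr, which were higher in both trained livers than in their sedentary counterparts, and for Irs1, the partner of Irs2, so that the letters can be compared with the values. Adra2a is represented by the 30 bases that hold its motif matches, at chr19:54045173-54045202 on the plus strand, which GENCODE M21 places inside an exon of a longer Adra2a transcript. The Irs1 sequence covers chr1:82291440-82291689 on the minus strand, the Irs2 sequence chr8:11008930-11009179 on the minus strand and the Lepr sequence chr4:101717157-101717403 on the plus strand, for the upstream one of its start sites. Capitals mark the E-box CACGTG, the sequence bound by the clock pair CLOCK and BMAL1 among other factors, and TGACG or its reverse complement CGTCA, the half-site of the cAMP-responsive factor CREB.
Adra2a: acttccCACGTGggggcTGACGccggctgc
Irs1: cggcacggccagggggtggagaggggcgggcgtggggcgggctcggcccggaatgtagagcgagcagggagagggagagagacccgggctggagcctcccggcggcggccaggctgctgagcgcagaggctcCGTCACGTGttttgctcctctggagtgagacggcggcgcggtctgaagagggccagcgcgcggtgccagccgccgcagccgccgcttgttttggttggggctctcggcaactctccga
Irs2: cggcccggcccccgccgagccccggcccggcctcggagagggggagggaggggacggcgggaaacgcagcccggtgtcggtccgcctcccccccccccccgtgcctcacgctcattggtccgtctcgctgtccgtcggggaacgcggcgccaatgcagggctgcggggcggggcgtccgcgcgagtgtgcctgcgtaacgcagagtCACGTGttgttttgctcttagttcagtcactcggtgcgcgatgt
Lepr: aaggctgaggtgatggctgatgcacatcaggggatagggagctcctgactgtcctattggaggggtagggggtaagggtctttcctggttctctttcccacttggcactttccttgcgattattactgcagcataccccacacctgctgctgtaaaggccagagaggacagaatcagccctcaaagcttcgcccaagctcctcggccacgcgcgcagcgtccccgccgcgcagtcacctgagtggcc
The start meant here is the RefSeq start, which in Adra2a, Irs1 and Irs2 is not the start of the gene model counted. In the 250 bases before the start, the E-box, counted from its first base, lay 80 bases before the start in Adra2a, 115 in Irs1 and 44 in Irs2. It was found in 6.02% of 32851 promoters on either strand. The CREB half-site lay 69 bases before the start in Adra2a and 118 in Irs1, where it overlaps the E-box, and was found in 17.8% of all promoters. No match to either motif, to the forkhead site GTAAACA (3.17% of promoters) or to the STAT site TTCNNNGAA (7.02%) was found in the Adra1b, Gcgr or Lepr windows on either strand. These are matches of letters only.

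Across the 8 genes, 2 were more than 2-fold higher in VI than in VS and none was more than 2-fold lower, where 3.44% of the 12180 genes passed 2-fold in either direction, 1.54% upward and 1.9% downward. In FI versus FS the count was again 2 higher and none lower, against 4.26% of all genes, 1.72% upward and 2.54% downward. In FS versus VS, 1 gene was more than 2-fold higher and 1 more than 2-fold lower, against 5.78% of all genes, 3.6% upward and 2.18% downward. In FI versus VI it was likewise 1 higher and 1 lower, against 4.54% of all genes, 2.59% upward and 1.95% downward. Since the genes were chosen knowing these contrasts, nothing is read from the comparison of these shares. Ratios are given as log2 values of CPM scaled by TMM, an edgeR factor that evens out library composition, with a 95% exact binomial interval that covers counting error only. A prior of 0.5 counts enters each ratio and fold but not the interval. At low counts a fold can therefore differ from the quotient of the CPM values given. With these counts an interval that leaves out 0 is common: it did so upward for 22.3% of all genes and downward for 21.7% in VI versus VS, for 24.3% and 23.9% in FI versus FS, for 27.2% and 25.7% in FS versus VS, and for 23.1% and 23.8% in FI versus VI. Among the 8 genes, 5 had an interval above 0 and 2 below it with IT in vehicle livers, and the numbers were the same in fibril livers. With amyloidosis, 2 lay above and 3 below in sedentary livers, and 3 above and 4 below in trained livers.

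**Figure D1:**
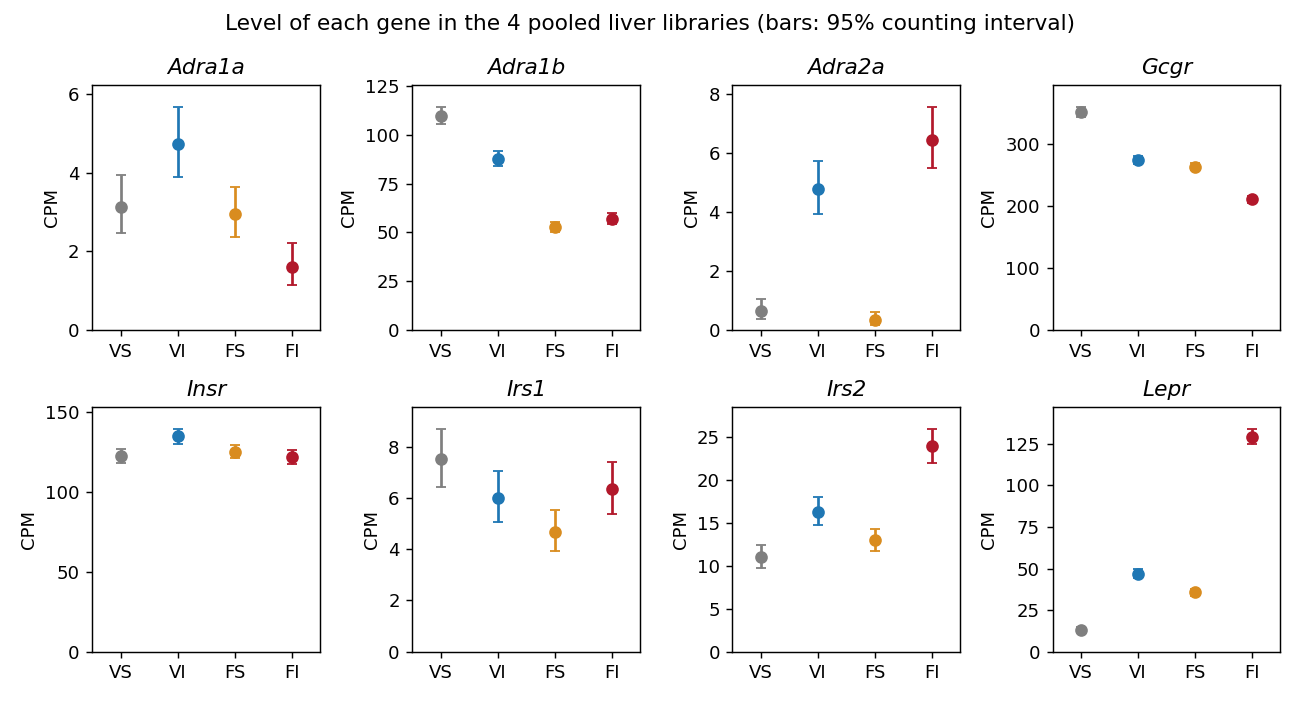
Level of each of the 8 genes in each library, in CPM on linear axes that start at 0, with 1 point per pooled library and bars for the 95% Poisson interval of its count. Adra2a sat at 0.635 and 0.339 CPM in the sedentary livers and at 4.76 and 6.45 in the trained livers, Lepr went from 13.1 in VS to 129 in FI, and Insr stayed between 122 and 135.

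Adra1b, the main catecholamine receptor of the rodent hepatocyte (chr11:43774606-43901210, minus strand, mm10), had 2596, 2138, 1553 and 1382 counts. These were 109.9, 87.8, 52.6 and 57.1 CPM. Both vehicle livers lay above both fibril livers. The level in FS was 2.09-fold below VS (log2 -1.06, interval -1.16 to -0.97), and that in FI was 1.54-fold below VI (log2 -0.62, -0.72 to -0.52). IT gave -0.32 (-0.41 to -0.24) in vehicle livers and 0.12 (0.01 to 0.22) in fibril livers. The IT ratio was thus below 0 without fibrils and slightly above it with them, a difference of 0.44 (0.31 to 0.58). The latter ratio was 0.05 when libraries were scaled by their totals.

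Adra1a, the other alpha-1 subtype detected (chr14:66635251-66733462, plus strand), was far lower per length, at 0.367 to 1.10 FPKM (fragments per kilobase of transcript, scaled to library size) against 16.2 to 33.2 for Adra1b. The counts were 74, 115, 87 and 39. In CPM it was 3.13, 4.72, 2.95 and 1.61. The trained vehicle liver was the highest and the trained fibril liver the lowest, and the sedentary livers lay between them and did not differ beyond counting error (FS versus VS log2 -0.09, -0.55 to 0.38). With IT the ratio was 0.59 (0.16 to 1.03) in vehicle livers and -0.86 (-1.45 to -0.31) in fibril livers, a difference of -1.45 (-2.14 to -0.76). FI was 2.90-fold below VI (log2 -1.54, -2.11 to -1.01). The gene model counted for Adra1a was 49.1% as long as the exons GENCODE M21 gives it, so reads from the remaining exons may be missing from these values.

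Adra2a, the Gi-coupled receptor (chr19:54045182-54048982, plus strand), had 15, 116, 10 and 156 counts. The levels were 0.635, 4.76, 0.339 and 6.45 CPM, where 3 counts correspond to 0.102 to 0.127 CPM. Both trained livers lay far above both sedentary livers. IT went with 7.30-fold more Adra2a in vehicle livers (log2 2.87, 2.13 to 3.79) and 18.0-fold more in fibril livers (log2 4.17, 3.33 to 5.34). Sorted by ratio, it was the 10th highest of 12180 genes in VI versus VS and the 2nd in FI versus FS. It passed the filter of 1 CPM only through the trained livers, and its ratios were known when it was chosen. Nothing is therefore read from these ranks. Amyloidosis gave -0.87 (-2.22 to 0.34) in sedentary livers, which rests on 10 and 15 counts, and 0.44 (0.08 to 0.80) in trained livers. On the FPKM scale with 1 added to each value, the IT ratios shrank to 0.94 and 1.28, because the values themselves lie near or below 1.

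Among adrenergic receptors that are not members, Adra1d was at 0 in every library and Adra2c had 1 count in FS and 0 elsewhere. The beta-1 receptor Adrb1 had 9, 16, 23 and 24 counts in VS, VI, FS and FI. Adrb3, the beta-3 receptor best known from fat cells, was at 23.2, 12.5, 10.5 and 10.3 CPM, with FS versus VS at -1.15 (-1.35 to -0.94) and FI versus VI at -0.28 (-0.53 to -0.04). Adra2b, a second alpha-2 subtype, was at 3.85, 2.504, 2.40 and 1.78 CPM. Neither Adrb3 nor Adra2b passed the additive model described below for either of its terms (adjusted p between 0.11 and 0.40, edgeR).

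Per length, the 8 adrenergic receptors named so far summed to 43.7, 33.8, 21.8 and 23.1 FPKM. Adra1b made up 76.2%, 77.4%, 74.3% and 72.3% of that sum. The Adra2a share was 0.386% in VS and 0.419% in FS, and 3.68% in VI and 7.15% in FI. Adrb3 made up 19.2%, 13.1%, 17.7% and 15.5%. Of these 8 transcripts the alpha-1B receptor was thus the most abundant in every library, and the Adra2a share was larger in FI than in the other libraries.

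**Figure D2:**
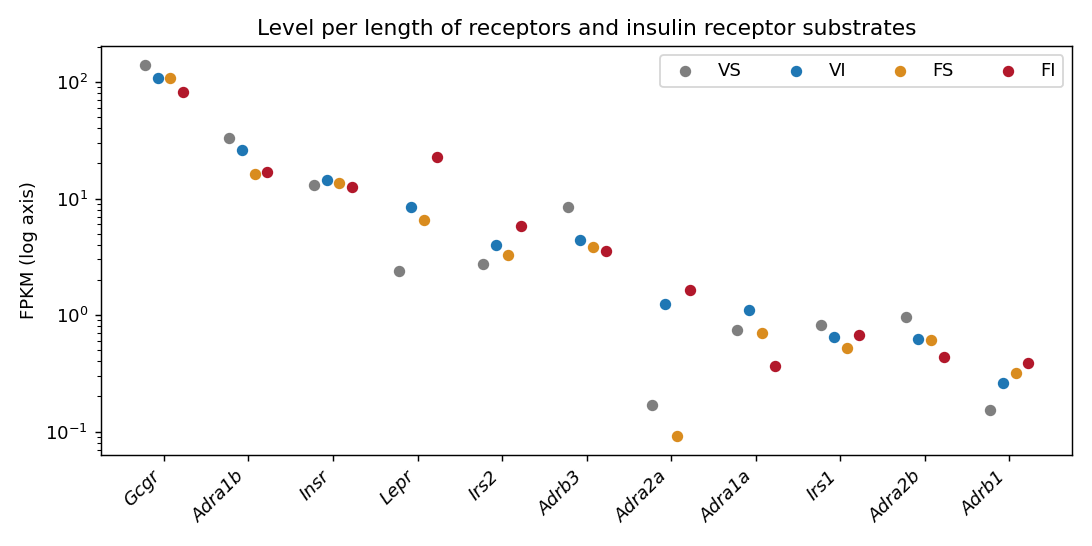
Deposited FPKM values of the receptors, on a log axis, set per length of the gene model counted, for each of the 4 pooled libraries with no error bars. Gcgr was the most abundant member in every library, with 141, 109, 108 and 81.9 FPKM in VS, VI, FS and FI, and the next was Adra1b in VS, VI and FS and Lepr in FI.

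Gcgr, the glucagon receptor (chr11:120530699-120538986, plus strand), was the most abundant of the 8 genes per length. It had 8287, 6671, 7758 and 5082 counts, or 351, 274, 263 and 210.1 CPM. VS was the highest and FI the lowest, and VI and FS were near each other. Both interventions went with a lower level by similar amounts. IT gave -0.36 (-0.40 to -0.31) in vehicle livers and -0.32 (-0.37 to -0.27) in fibril livers, amyloidosis gave -0.42 (-0.46 to -0.37) in sedentary and -0.38 (-0.44 to -0.33) in trained livers, and FI was 1.67-fold below VS. The IT ratios differed between fibril and vehicle livers by 0.03 (-0.03 to 0.10). An antisense gene, Gm11789, shares exon sequence with Gcgr and had 661, 383, 644 and 293 counts, and it is not stated whether strand was used in counting.

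Insr, the insulin receptor (chr8:3150922-3279617, minus strand), varied least of the 8. Its counts were 2891, 3277, 3691 and 2940 in VS, VI, FS and FI, and its levels 122.4, 134.5, 125.0 and 121.5 CPM. VI was the highest, and VS, FS and FI did not differ from each other beyond counting error. The IT ratio was 0.14 (0.06 to 0.21) in vehicle livers and -0.04 (-0.11 to 0.03) in fibril livers. FS versus VS was 0.03 (-0.04 to 0.10) and its sign depended on the scaling, from -0.04 to 0.05. FI versus VI was -0.15 (-0.22 to -0.07). The ratio of Gcgr to Insr, per length, was 10.7, 7.61, 7.86 and 6.46. The gene models counted were 95.5% as long as the M21 exons for Gcgr and 68.1% for Insr, so the size of this ratio rests on them too.

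The insulin receptor substrates behaved unlike each other. Irs2 (chr8:10986980-11008458, minus strand), whose transcription is known to be raised in fasting, had 261, 397, 383 and 579 counts. In CPM it was at 11.1, 16.3, 13.0 and 23.9. FI was the highest and VS the lowest. The IT ratio was 0.56 (0.33 to 0.79) in vehicle and 0.88 (0.69 to 1.07) in fibril livers, and the amyloidosis ratio was 0.55 (0.37 to 0.74) in trained livers and 0.23, with an interval reaching down to 0, in sedentary livers. FI was 2.16-fold above VS.

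Irs1 (chr1:82233101-82291416, minus strand), the substrate with the wider role outside the liver, had 177, 146, 138 and 153 counts in the 4 libraries, or 7.495, 5.99, 4.67 and 6.32 CPM. VS was the highest and FS the lowest, and FI and VI lay between them and did not differ beyond counting error. FS versus VS was -0.68 (-1.01 to -0.35), whereas FI versus VI, which does not use VS, was 0.08 (-0.26 to 0.41). IT gave -0.32 (-0.65 to 0.00) in vehicle livers and 0.43 (0.09 to 0.78) in fibril livers. Irs2 exceeded Irs1 per length by 3.35-, 6.18-, 6.31- and 8.60-fold. The Irs2 gene model counted was 63.6% as long as its M21 exons, whereas that of Irs1 had the same length as in M21, so the size of this ratio rests on the gene models used.

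Lepr, the leptin receptor (chr4:101717404-101815352, plus strand), had the widest log2 range, 3.30, among members with over 200 counts in every library. It had 310, 1142, 1052 and 3128 counts, or 13.1, 46.9, 35.6 and 129 CPM. FI stood above all other libraries and VS below them, with no pair of neighbours in the order FI, VI, FS, VS within counting error of each other. IT went with 3.57-fold more Lepr in vehicle livers (log2 1.83, 1.65 to 2.02) and 3.63-fold more in fibril livers (log2 1.86, 1.76 to 1.96). Amyloidosis went with 2.71-fold more in sedentary livers (log2 1.44, 1.26 to 1.63) and 2.76-fold more in trained livers (log2 1.46, 1.37 to 1.56). On the log scale the IT ratio was larger with fibrils than without by 0.02 (-0.18 to 0.23), a difference within counting error, and FI was 9.84-fold above VS. Whether the responses add up across mice was not tested. By ratio, Lepr was the 33rd highest of 12180 genes in VI versus VS and the 27th in FI versus FS. Lepr was chosen with its ratios known, so these ranks too are only a description. Relative to Insr per length it went from 0.181 in VS to 0.588 in VI, 0.481 in FS and 1.80 in FI, with a Lepr gene model 78.6% as long as its M21 exons. Since 1 value is given per gene, the long, short and soluble forms of Lepr cannot be told apart.

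**Figure D3:**
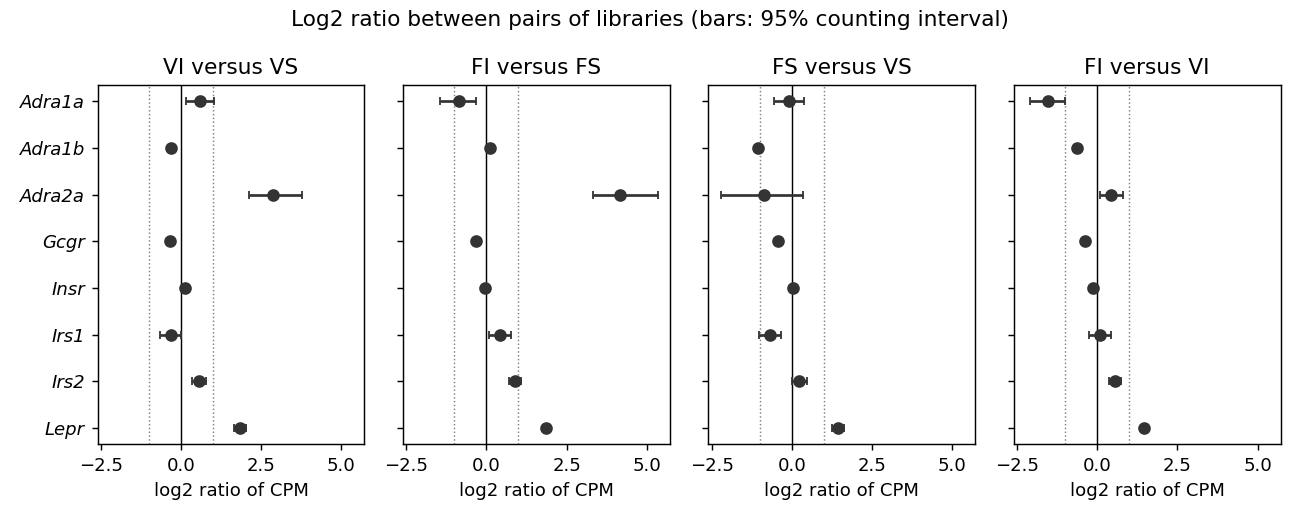
Log2 ratios of each of the 8 genes in the 4 contrasts between pooled libraries, with bars for the 95% exact binomial interval, which covers counting error only. The Lepr ratios lie between 1.44 and 1.86 in all 4 contrasts, the Gcgr ratios between -0.42 and -0.32, and Adra2a stands out only in the contrasts for IT.

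**Figure D4:**
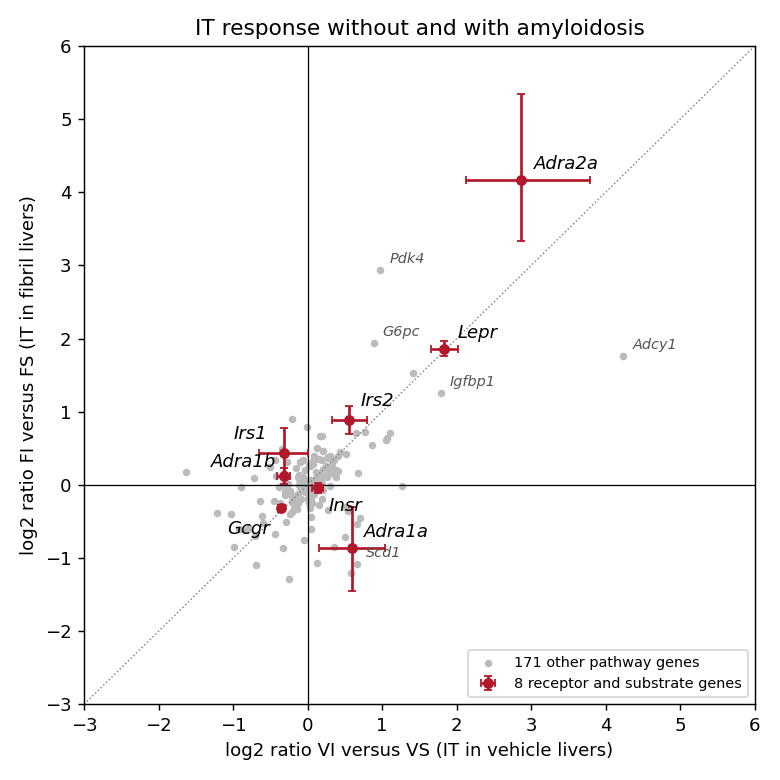
IT response in fibril livers (FI versus FS, log2 ratio) against that in vehicle livers (VI versus VS, log2 ratio), for the 8 members in red with bars for their counting intervals and 171 expressed pathway genes in grey, with 1 point per gene. Lepr, at 1.83 and 1.86, lies on the line of equal response, whereas Adra1a lies at 0.59 and -0.86 and Adra1b at -0.32 and 0.12.

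The genes whose pattern over the 4 libraries was most like that of a member were found by the root mean square difference of centred log2 CPM among 8849 genes. For Lepr these were Igfbp1 (0.24), which encodes an IGF-binding protein repressed by insulin, Cyp2b10 (0.28), a drug-metabolising cytochrome, and Got1 (0.28), an aspartate aminotransferase. Igfbp1 was at 154, 533, 585 and 1396 CPM. For Adra2a the nearest were Serpina4-ps1 (0.70), the clock gene Arntl, which encodes BMAL1 (0.79), and Etnppl (0.84), and these distances were the widest among the members so compared, which were those whose log2 level ranged over more than 1. For Adra1b they were Hyi (0.01), Ak4 (0.03) and the peroxisomal thiolase Acaa1a (0.03), for Irs2 the noncoding RP24-458J4.2 (0.02), Nlgn2 (0.05) and the lipase Pnpla2 (0.05), and for Adra1a Cryl1 (0.14), Esrrg (0.16) and Efna1 (0.18). With 4 libraries and this many genes, a small distance is a description and no sign of a shared role.

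Transcripts of the hormones that act on these receptors were at or near 0 in the liver. Insulin (Ins1, Ins2), leptin (Lep) and the catecholamine-synthesising enzymes Th and Dbh were at 0 counts in every library, which allows up to 0.102 to 0.127 CPM, and glucagon (Gcg) had 1 count. Igf1, the only one of the 9 ligand genes above 1 CPM, had 12140, 16545, 14484 and 13577 counts.

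The pathways downstream were followed in 12 lists with 199 genes, of which 172 were tested in an additive model (edgeR quasi-likelihood, Benjamini-Hochberg adjustment over 11760 genes). In that model each of IT and amyloidosis is a term and the single residual degree of freedom is their interaction, so its p-values weigh each term against the departure from additivity and not against the spread between mice. IT called 157 genes (1.34%), with 0.672% rising and 0.663% falling, and amyloidosis 540 (4.59%), with 2.64% rising and 1.96% falling. Of the 172 pathway genes, 5 rose and 2 fell with IT, and 7 rose and 4 fell with amyloidosis, which are 4.07% and 6.395% of them. The median ratio over the expressed pathway genes was between 0.00 and 0.03 in the 4 contrasts, and over all genes it was between 0.00 and 0.02.

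Of 31 tested genes of the G protein and cAMP relay, 1 rose and 1 fell with amyloidosis and none passed with IT. Adcy1, an adenylyl cyclase better known from brain, had 1, 28, 86 and 239 counts, and passed with amyloidosis (adjusted p = 0.0085, edgeR). Its FS versus VS log2 ratio, which rests on 1 count in VS, was 5.56 (3.59 to 11.42), and its FI versus VI ratio was 3.08 (2.54 to 3.72). Pde4c, a cAMP phosphodiesterase, fell with amyloidosis (log2 -0.53, adjusted p = 0.045, edgeR).

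Of 23 genes of the Gq and calcium relay, Itpr1, the calcium channel opened by inositol trisphosphate downstream of Adra1b, was the only one to pass. It rose with IT (log2 0.68, adjusted p = 0.034, edgeR), with 46.6, 72.9, 54.5 and 89.0 CPM. Plcb1, a phospholipase C, was at 10.6, 22.0, 11.3 and 17.4 CPM in VS, VI, FS and FI (adjusted p = 0.059 for IT, edgeR). Rgs16, a regulator that quenches Gi and Gq signalling, was at 221, 192, 207 and 385 CPM, and Rgs2 at 2.33, 3.74, 4.91 and 5.50.

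Among 9 tested targets of glucagon and cAMP, 3 rose with IT and 2 with amyloidosis, and none fell. Tat, tyrosine aminotransferase, was at 938, 2018, 3226 and 5278 CPM (adjusted p = 0.043 for IT and 0.0045 for amyloidosis, edgeR). Sds, serine dehydratase, was at 54.6, 114.2, 114.3 and 177 CPM (adjusted p = 0.034 and 0.016, edgeR). Nr4a1, an immediate early nuclear receptor, rose with IT (log2 1.48, adjusted p = 0.029, edgeR). G6pc, the last enzyme of glucose release, was at 206, 381, 181 and 694 CPM and did not pass (adjusted p = 0.054 for IT, edgeR). These targets, named because they passed the test or changed by more than 2-fold, were higher in FI than in VS, while Gcgr itself was lowest in FI. Of the tested genes in this list only Fbp1 was lower in FI than in VS, at 843 against 966 CPM. A link between the level of Gcgr and these targets was not tested.

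None of the 23 tested genes of the insulin relay passed for either term. Among 19 tested attenuators of insulin signalling, Trib3, an AKT-binding pseudokinase, rose with amyloidosis (log2 1.07, adjusted p = 0.019, edgeR). Of 10 FOXO1 targets that insulin represses, Igfbp1 rose with IT (log2 1.52, adjusted p = 0.0070, edgeR) and with amyloidosis (log2 1.66, adjusted p = 0.0044, edgeR). Pdk4, which spares glucose by blocking pyruvate dehydrogenase, was at 26.0, 51.0, 5.79 and 44.5 CPM and did not pass (adjusted p = 0.29 for IT and 0.36 for amyloidosis, edgeR). Its IT ratio was 0.97 in vehicle and 2.94 in fibril livers, and the model counts such inequality as error. The study itself reported Pdk4 and G6pc as raised by exercise in the liver, from RNA-seq and from qPCR on individual mice.

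Of 12 lipogenic genes that insulin induces, 2 fell with IT and 1 with amyloidosis. Srebf1, the lipogenic transcription factor, was at 284, 174, 165 and 102 CPM and fell with both (log2 -0.70 and -0.78, adjusted p = 0.034 and 0.012, edgeR). Pklr, liver pyruvate kinase, fell with IT (log2 -0.92, adjusted p = 0.013, edgeR). Scd1, a fatty acid desaturase, was at 1250, 1981, 2181 and 1029 CPM, and Thrsp at 167, 71.8, 192 and 147. The ratio of Scd1 with IT was 0.66 in vehicle and -1.08 in fibril livers.

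In the leptin receptor relay, Stat3 was the only one of 15 genes to pass, and it rose with amyloidosis (log2 0.55, adjusted p = 0.044, edgeR), from 134 to 210.3 CPM in sedentary and from 135 to 184 in trained livers. Socs3, a feedback inhibitor of this relay, was at 9.53, 12.2, 27.4 and 15.3 CPM (adjusted p = 0.70 for IT and 0.11 for amyloidosis, edgeR). Leprot, which regulates how much leptin receptor reaches the cell surface, was at 21.4, 23.5, 25.1 and 27.3 CPM, a far narrower range than that of Lepr. The kinase Jak2 was at 15.6, 12.9, 12.1 and 14.9 CPM.

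**Figure D5:**
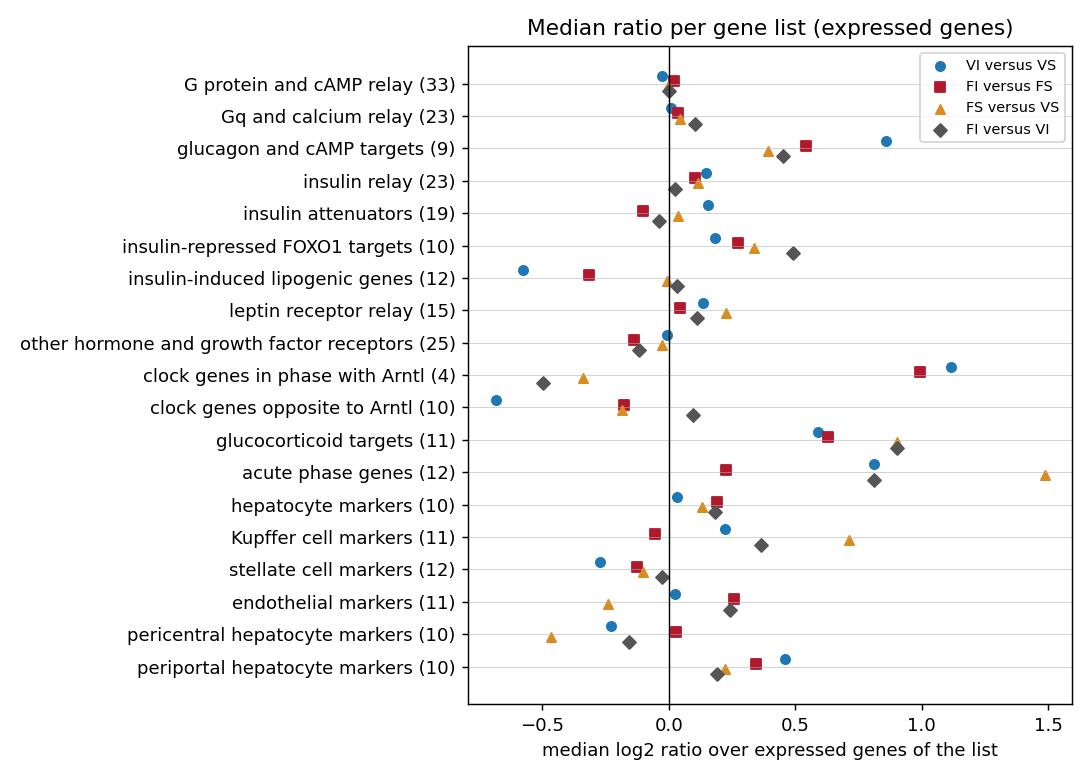
Median log2 ratio of each pathway, state and cell type list in the contrasts between pooled libraries, over its expressed genes and with no error bars. The glucagon and cAMP targets have medians of 0.86 with IT in vehicle livers and 0.54 in fibril livers, and those of the insulin relay lie within 0.02 to 0.15 throughout.

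Several other programmes moved with the same groups as the receptors, and their part in the receptor values was not tested. With IT, 2 of 4 tested clock genes in phase with Arntl rose and 2 of 9 in the opposite phase fell. Arntl was at 1.44, 6.65, 1.12 and 4.71 CPM (adjusted p = 0.011 for IT, edgeR), the same split of trained and sedentary livers as for Adra2a. Dbp, a clock output factor, was at 102.2, 22.2, 80.9 and 25.5 CPM (adjusted p = 0.0018 for IT, edgeR). The study states that organs were collected within a day of the training and that the mice were kept with free access to food. Neither the clock hour of collection nor the feeding state of the mice at collection is stated.

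Of 11 glucocorticoid targets, 3 rose with IT and 9 with amyloidosis, and their summed level was 3556, 6330, 8566 and 13019 CPM, the direction in which Lepr and Irs2 also went from VS to FI. Between these ends the order differed: the sum was higher in FS than in VI, whereas Lepr and Irs2 were higher in VI than in FS. Some lists share genes, so they are not separate evidence. Tat, at 938, 2018, 3226 and 5278 CPM, is counted here and among the glucagon and cAMP targets. Fkbp5, a standard target of the glucocorticoid receptor, was at 100.2, 151, 187 and 368 CPM (adjusted p = 0.038 for IT and 0.0081 for amyloidosis, edgeR). Of 12 acute phase genes, 3 rose with IT and 9 with amyloidosis, and their sum was 11101, 15884, 25151 and 28270 CPM. Saa1, serum amyloid A, was at 29.98, 155, 945 and 1803 CPM.

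Markers of other cell types also differed between libraries, and their part in the receptor values was not tested. Markers of Kupffer cells, the liver's macrophages, summed to 329, 396, 510 and 501 CPM, with 3 of 11 rising with amyloidosis. Neutrophil and myeloid precursor markers summed to 2.71, 3.65, 18.5 and 13.8 CPM, with 1 of 3 tested rising with amyloidosis. Markers of stellate cells, which store vitamin A, summed to 441, 376, 357 and 412 CPM with none of 11 tested passing. Pericentral hepatocyte markers summed to 13526, 11805, 7845 and 10783 CPM, with 2 of 10 falling with amyloidosis, beside the lower Adra1b of the fibril livers, and periportal markers summed to 7620, 10066, 10046 and 11928. Of 8 adipocyte markers 3 were above 1 CPM, Adrb3 being 1 of them, and 6 of 10 pancreas markers were at 0 in every library. The pancreas markers summed to 23.2, 13.4, 15.2 and 12.8 CPM and the adipocyte markers to 32.7, 22.8, 19.0 and 21.2. Erythroid markers summed to 361, 284, 253 and 339 CPM, so these sums too were highest in VS.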

How the data were processed

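Total RNA from 4 pools of mouse liver was sequenced with 1 library per group. The submitters' processing notes name fastp 0.23.2, STAR 2.5, HTSeq 0.6.1 and the mm10 build, without giving the strand setting. The authors deposited raw read counts per gene and, in a separate table, FPKM values made from the same counts, gene lengths and library totals. The library totals were 23442935 (VS), 24524287 (VI), 28814802 (FS) and 24801185 (FI), and with reads that were not marked by molecule the intervals cover counting error only.

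CPM and log2 ratios were computed with edgeR 4.0.16 (TMM scaling) in R 4.3.3, and intervals and tables with scipy 1.17.1 in Python 3.11.15. Each log2 ratio or fold of CPM between libraries used a prior of 0.5 counts. The binomial intervals were computed from the counts without that prior. Ratios were taken over genes that reached 1 CPM in any library. The design has no replicates, so contrasts between libraries have no test, and an additive quasi-likelihood model of IT and amyloidosis with 1 residual degree of freedom was fitted to genes reaching 1 CPM in 2 or more libraries. The fit was also run on simulated data that held no interaction, so that run cannot show how it behaves where the 2 responses depend on each other. The members and lists were chosen with earlier results of these data known. All members are named. A pathway gene is named where it passes the additive test, or where its ratio exceeds 2-fold in any contrast with at least 5 CPM in any library (at most 6 per list). Every adrenergic receptor falls under the rule, and a few genes that meet it are not reported here. Jak2, Leprot, Igf1, Maoa, Maob, Fbp1, Arntl, Dbp, Fkbp5 and Saa1 are shown as examples of their lists and were chosen after their values were seen. Alternatives were other scalings, a prior of 2 counts, FPKM with pseudocounts of 0.1 and 1, other filters, limma-voom (limma 3.58.1) and DESeq2 1.42.0. Gene positions are those of the deposited table (mm10), of whose 35275 genes 34490 were found in GENCODE M21 and 24932 had the same start and end there. Columns of gene annotation were used for positions and for the lengths of the gene models counted.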

Additional observations from a re-analysis of the deposited data

Results flagged for a closer look

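For some genes the response to one intervention pointed in opposite directions at the levels of the other. With 1 pool per group the difference was not tested across mice. Among the receptors, the IT ratio of Adra1a was 0.59 in vehicle and -0.86 in fibril livers (difference -1.45), and that of Adra1b was -0.32 and 0.12 (difference 0.44). The Adra1b ratio in fibril livers was close to 0, with an interval of 0.01 to 0.22, and was 0.05 when libraries were scaled by their totals. Among pathway genes, the IT ratio of Socs3 was 0.35 in vehicle and -0.84 in fibril livers (difference -1.19), that of Rgs16 was -0.21 and 0.90 (difference 1.10) and that of Scd1 was 0.66 and -1.08 (difference -1.75). The amyloidosis ratio of Rgs16 was -0.10 in sedentary and 1.01 in trained livers (difference 1.10), that of Scd1 was 0.80 and -0.95 (difference -1.75), that of G6pc was -0.19 and 0.86 (difference 1.05) and that of Nr3c2 was 0.30 and -0.74 (difference -1.05).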

How the results depend on the processing

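No paired analysis was possible because each group holds 1 pooled library. Of 192 alternative values for the ratios of the 8 genes, 177 stayed within the counting interval of the reported value and 15 moved outside it, and no ratio beyond 2-fold changed sign. With 1 added to FPKM, 1 member in place of 2 passed 2-fold in VI versus VS, in FS versus VS and in FI versus VI, and the ratios of Adra2a with IT fell to 0.94 and 1.28. The numbers of all genes beyond 2-fold, 419 in VI versus VS, 519 in FI versus FS, 704 in FS versus VS and 553 in FI versus VI, became 4035, 4044, 4429 and 4197 without a filter on low counts, 144, 203, 353 and 229 at 5 CPM, and 1421, 1648, 2133 and 1703 at 1.5-fold.

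In the additive model the 157 genes called with IT became 241 with DESeq2 size factors and 740 without a filter, and the 7 pathway genes became 15 and 21, and 14 by limma-voom. With amyloidosis the 540 genes became 1519 and the 11 pathway genes 30 without a filter. DESeq2 did not call Osmr (adjusted p = 0.12) or Pde4c (adjusted p = 0.11) with amyloidosis. The cause of these shifts was not tested. Limits include the pooling of mice, which leaves no spread between animals, and the low counts of Adra2a in sedentary livers, 15 and 10, which make the size of its ratios uncertain by counting alone.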

Other observations

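Receptors for other hormones and growth factors gave a further view of the same livers. Of 25 tested genes in that list, 1 rose and 2 fell with amyloidosis and none passed with IT. Ghr, the growth hormone receptor, was at 446, 392, 296 and 251 CPM and fell with amyloidosis (log2 -0.62, adjusted p = 0.029, edgeR). Esr1, the oestrogen receptor alpha, was at 40.0, 45.1, 24.8 and 25.5 CPM and fell (log2 -0.76, adjusted p = 0.015, edgeR). Osmr, a receptor chain for oncostatin M, rose (log2 1.32, adjusted p = 0.034, edgeR) from 1.99 to 4.67 CPM in sedentary livers and from 1.15 to 3.10 in trained livers. Egfr, the epidermal growth factor receptor, was at 47.3, 113.8, 236 and 234 CPM and did not pass (adjusted p = 0.066 for amyloidosis, edgeR), with an IT ratio of 1.27 in vehicle and -0.01 in fibril livers. Nr3c2, the mineralocorticoid receptor, was at 8.72, 7.35, 10.8 and 4.38 CPM.

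None of the 6 catecholamine clearance genes passed for either term. Maob, a monoamine oxidase, was at 199, 152, 144 and 141 CPM, and Maoa at 7.33, 10.5, 8.57 and 11.5.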
